A study of Mus musculus with 8 samples.

Results

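Kinesins are motor proteins that hydrolyse ATP to walk along microtubules, or to take microtubule ends apart. Mitotic kinesins build the spindle, move chromosomes and complete cell division. Transport kinesins carry vesicles, organelles and RNA, and further members serve cilia or set microtubule length. The genes described here were chosen by name: every gene on the array whose symbol is Kif followed by a number and at most 1 letter, or Kifc followed by 1 digit. The rule used no measured value. It found 29 genes of the 16593 with a symbol, and they were read with 51 of the 25697 probes.

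The cells were V6.5, a mouse embryonic stem cell line, and their RNA was hybridised to Illumina bead arrays of the MouseRef-8 v2.0 design. All cells were taken to an epiblast-like state by 3 days without LIF and without the GSK and MEK inhibitors (2i) in serum medium. The wildtype group was 4 subclones of V6.5 that are GRHL2 wildtype, and the knockout group was 4 GRHL2 knockout clones of the same line, with 1 array each. GRHL2 is a grainyhead-like transcription factor of epithelia. Values are from single clones, and nothing in the labels says whether the cultures were grown apart, so p-values measure the spread between these arrays only. In RNA from whole cultures, fewer cells of a type and less RNA per cell cannot be told apart.

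Grhl2 was read first as a check of the labels. Its log2 normalized intensity was 9.62, 8.72, 8.16 and 8.87 on wildtype replicates 1 to 4 and 7.92, 7.86, 7.06 and 7.99 on knockout replicates 1 to 4, lower on every knockout array (limma adjusted p = 0.0369). Where its probe lies relative to the deletion was not known. All 11 markers of the pluripotent epiblast, Pou5f1, Otx2 and Fgf5 among them, were detected on all 8 arrays. Of 9 feeder fibroblast markers 5, Col1a1, Col1a2 and Col3a1 among them, were detected on no array. Thy1, Acta2 and Dcn were detected on all 8 arrays, and Lox on 3 wildtype and 4 knockout arrays. The summed normalized intensity of these 4 was 505 to 1269 in wildtype and 510 to 873 in knockout. Of 10 trophoblast markers 7 were detected on at least 4 arrays. Their summed normalized intensity was 538 to 3018 in wildtype and 256 to 424 in knockout, ranges that do not overlap. All 7 had negative changes, and 1 had a limma adjusted p under 0.05 (14.3%, against 13.7% of all genes). That was Tfap2c, with a log2 change of -2.62 (limma adjusted p = 0.0249) and a wildtype SD of 1.52. The groups overlapped for Gata2, Gata3, Eomes, Krt7 and Ascl2, and Elf5 and Hand1 were detected on no array. Of 10 endoderm markers 3 were detected on at least 4 arrays, and Gata4, Foxa2 and Afp on no array. The summed level of these 3 tested members was 966 to 1376 in wildtype and 807 to 927 in knockout. The 3 tested members went both ways: Col4a1 fell by 0.79 and Lama1 rose by 0.91 (limma adjusted p = 0.0206 and 0.0418), and Dab2 had a log2 change of 0.02. The part of such cells in the kinesin results was not tested. Between 28 and 32 of the 51 kinesin probes were detected on each array (detection p under 0.05). Mean raw intensity over all probes was lower on knockout arrays, at 72.3% of wildtype (exact two-sided permutation p = 0.0286, the smallest possible with 70 splits). On wildtype replicate 3 the genes of chromosome 6 stood a median of 0.40 (log2) above the other wildtype arrays, and those of chromosome 8 had a median shift of -0.43 on the first knockout array against the other knockout arrays. Of the kinesin genes tested none is on chromosome 6, and Kifc3 is on chromosome 8.

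Of the 29 kinesin genes, 23 had a probe detected on at least 4 arrays and were tested. Kifc2 and Kif22 rose in knockout, Kif23 fell, and the other 20 did not pass the threshold (limma, Benjamini-Hochberg adjusted p under 0.05 over 8830 genes). These 3 calls are 13.0% of the kinesin genes tested, against 13.7% of all genes (6.55% higher and 7.17% lower). The share called among kinesins was thus near the background, and the median change was 0.03 for kinesins and 0.01 for all genes on the log2 scale. The arrays of the groups did not overlap for 7 of the 23 genes (30.4%), against 23.2% of all genes. The median SD between arrays of a group was 0.19 in wildtype and 0.16 in knockout for kinesins, and 0.19 in both groups for all genes.

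**Figure D1:**
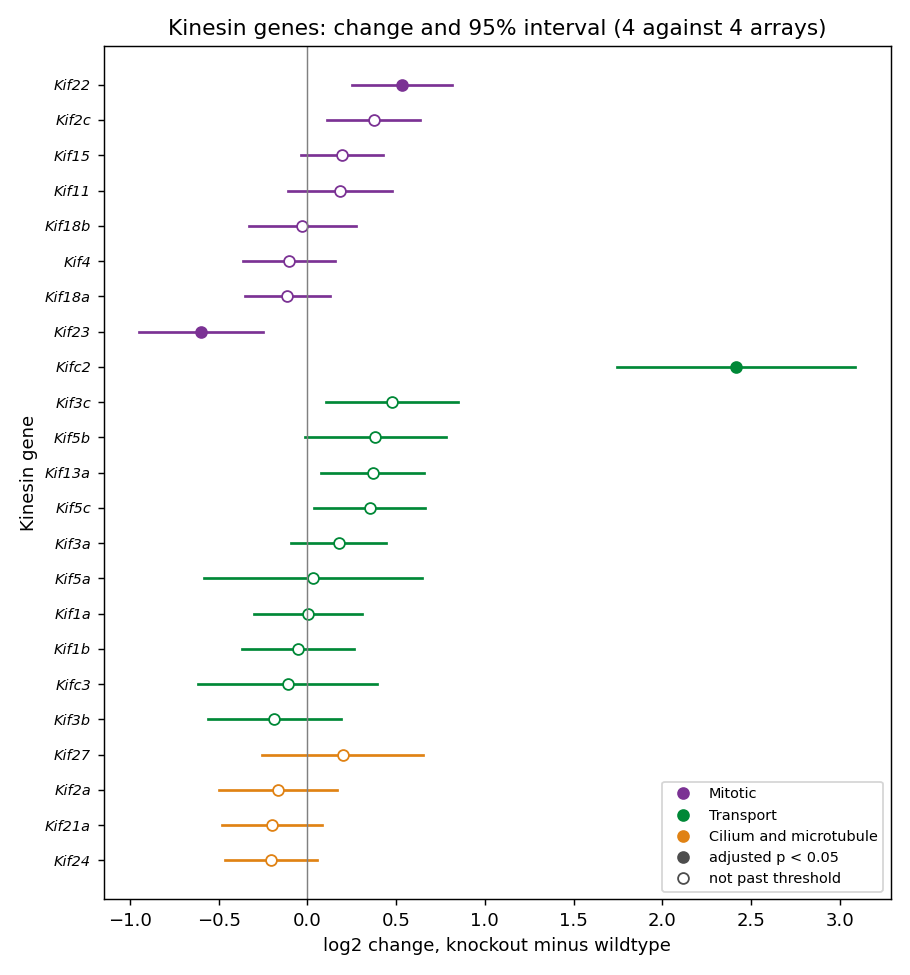
Log2 change of knockout minus wildtype (horizontal axis) for the 23 tested kinesin genes (vertical axis), with 95% intervals from limma and colours for the class. Kifc2, Kif22 and Kif23 are filled as past the threshold, and Kifc2 lies far to the right of the others at 2.41.

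The mitotic kinesins held 10 genes, of which 8 were tested, 1 rose and 1 fell, with a median log2 change of 0.08. These 2 are 25% of a small class, against 13.7% of all genes. Kif22, also called Kid, is a chromokinesin that binds DNA and pushes chromosome arms toward the spindle equator. Its log2 normalized intensity was 11.01, 11.46, 11.27 and 11.38 on wildtype replicates 1 to 4 and 11.99, 11.83, 11.65 and 11.79 on knockout replicates 1 to 4. All 4 knockout arrays lay above all 4 wildtype arrays. Kif22 was 1.45-fold higher in knockout (log2 change 0.53, SE 0.13, limma adjusted p = 0.0263). Its direction rests on the scaling between arrays: it was 0.13 (adjusted p = 0.555) with median scaling, which moved the median of all genes to -0.35, and -0.11 with no normalization between arrays, which moved that median to -0.58. The call was lost when wildtype replicate 1, wildtype replicate 4, knockout replicate 2 or knockout replicate 4 was left out (highest adjusted p = 0.0658), and with array brightness as a covariate (0.70, adjusted p = 0.399). In the fit with brightness 16 of 8830 genes passed the threshold (0.181%). Brightness did not overlap between the groups, so for any gene this fit can hardly part it from genotype.

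Kif23, the motor of the centralspindlin complex that organises the spindle midzone for cytokinesis, went the other way. Its values were 10.30, 9.63, 9.68 and 9.67 on wildtype replicates 1 to 4 and 9.31, 9.15, 9.29 and 9.15 on knockout replicates 1 to 4. The knockout arrays all lay below the wildtype arrays, and wildtype replicate 1 stood well above the other wildtype arrays. Kif23 was 1.51-fold lower in knockout (log2 change -0.60, SE 0.16, limma adjusted p = 0.0353). Without wildtype replicate 1 the change was -0.44 (adjusted p = 0.0374), and the call was lost when any of wildtype replicates 2 and 4 and knockout replicates 2, 3 and 4 was left out (highest adjusted p = 0.0854). It was also lost with no detection filter (adjusted p = 0.0502) and with array brightness as a covariate (-0.33, adjusted p = 0.776). Kif23 was at -1.07 with median scaling and at -1.30 with no normalization between arrays. These settings moved the median of all genes to -0.35 and -0.58, so a negative sign kept under them adds no support.

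A ratio of raw intensities taken on 1 array is free of scaling between arrays. The ratio of the raw intensity of Kif22 to that of Kif23 lay between 1.59 and 3.28 on wildtype arrays and between 4.49 and 5.64 on knockout arrays. The groups did not overlap. On the raw log2 scale this difference changed by 1.03 between groups. On the normalized log2 scale, which is not free of scaling between arrays, it changed by 1.13. The exact two-sided permutation p there was 0.0286, the smallest possible, and 0.0286 after Benjamini-Hochberg adjustment over 3 such differences. The pair was chosen because both genes were called, so the test adds no independent support.

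Kif2c, the centromeric kinesin that depolymerises microtubules to correct faulty attachments, lay just outside the threshold. It measured 10.11, 10.24, 10.46 and 10.31 on wildtype replicates 1 to 4 and 10.45, 10.69, 10.69 and 10.77 on knockout replicates 1 to 4. A single knockout array, replicate 1, lay within the wildtype range. The log2 change was 0.37 (SE 0.12, limma adjusted p = 0.0610), and it passed the threshold under 9 of 21 alternative settings. The change was -0.08 with median scaling and -0.32 with no normalization between arrays, and -0.042 with array brightness as a covariate.

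**Figure D2:**
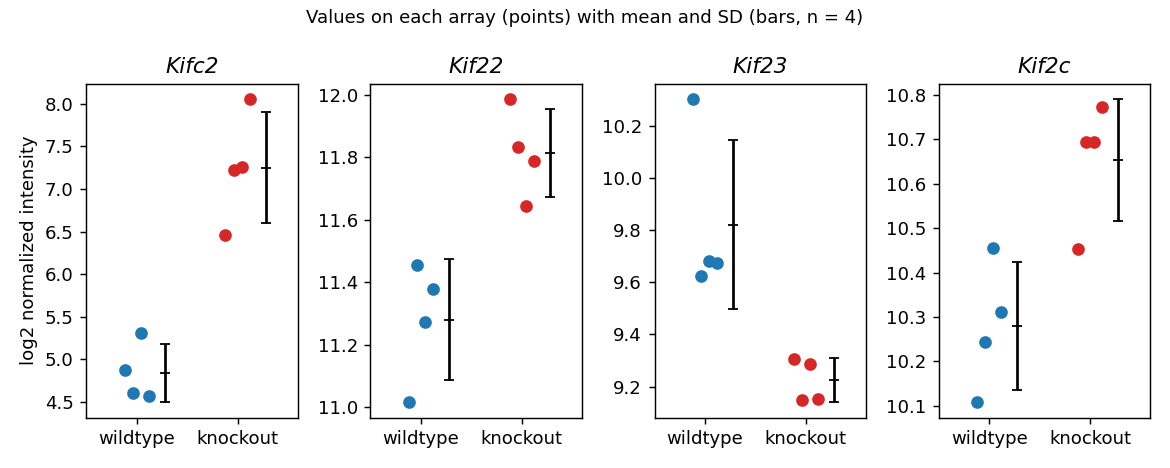
Log2 normalized intensity (vertical axis, a separate scale in each panel) of Kifc2, Kif22, Kif23 and Kif2c on 4 wildtype and 4 knockout arrays, with mean and SD beside the points. The groups are apart for Kifc2, Kif22 and Kif23, and for Kif2c knockout replicate 1 lies at 10.45, beside wildtype replicate 3 at 10.46.

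The motors that set up the spindle were not past the threshold. Kif11, which slides antiparallel microtubules to part the spindle poles, was 8.62 ± 0.22 in wildtype and 8.81 ± 0.11 in knockout, a log2 change of 0.18 with a 95% interval of -0.11 to 0.48. Kif15, which can take over part of that work, was 9.63 ± 0.04 and 9.83 ± 0.14 (SD, n = 4 each; limma adjusted p = 0.226). All 4 knockout arrays of Kif15 lay above the wildtype arrays, by normalized values, and below them by raw intensity, and the change was -0.29 with median scaling and -0.52 with no normalization between arrays. Changes of the others were -0.11 for Kif18a, which damps the movements of chromosomes at the equator, -0.10 for the chromokinesin Kif4, and -0.03 for Kif18b, which shortens astral microtubules. All 3 retained probes of Kif4 had negative changes, from -0.168 to -0.075, and those of Kif18b ran from -0.27 to 0.20, with no probe of either gene past the threshold.

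Kif20a, which carries the chromosomal passenger complex to the midzone, and Kif2b, a depolymerase of the centromere, were not tested. Kif2b was detected on no array. Kif20a was detected on 0 wildtype and 3 knockout arrays. Its values were 4.55, 4.31, 4.44 and 4.46 on wildtype replicates 1 to 4 and 4.71, 4.99, 5.19 and 5.23 on knockout replicates 1 to 4. These normalized values did not overlap between groups. Raw intensities did overlap, at 147, 132, 137 and 147 on the wildtype arrays and 136, 136, 143 and 137 on the knockout arrays, so the direction rests on the normalization between arrays. The wildtype signal was not above background. On the normalized scale knockout was at least 1.10-fold higher, and with no detection filter the limma adjusted p was 0.0279.

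The promoters of mitotic kinesins are shown because several hold the same cell cycle elements whichever way the gene moved. The windows run from 250 bases before to 50 after the start of the gene (RefSeq, build GRCm38.p6), and 24 of the 29 genes had at least 1, 28 windows in all. No window was at hand for Kifc2, Kifc3, Kif5a, Kif5b and Kif20a. Capitals mark the cell cycle homology region, searched as TTTGAA or TTCGAA, and the CCAAT box, searched as CCAAT, each on both strands, so that TTCAAA and ATTGG are matches on the reverse strand. Kif22 lies at chr7:127042371-127042670 on the minus strand, Kif23 at chr9:61946750-61947049 on the minus strand and Kif11 at chr19:37376132-37376431 on the plus strand.
Kif22: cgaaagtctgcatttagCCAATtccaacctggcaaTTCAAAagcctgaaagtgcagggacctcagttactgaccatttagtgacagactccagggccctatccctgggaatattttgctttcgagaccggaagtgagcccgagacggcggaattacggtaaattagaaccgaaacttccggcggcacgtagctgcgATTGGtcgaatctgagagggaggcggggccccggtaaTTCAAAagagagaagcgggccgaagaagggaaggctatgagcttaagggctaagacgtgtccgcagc
Kif23: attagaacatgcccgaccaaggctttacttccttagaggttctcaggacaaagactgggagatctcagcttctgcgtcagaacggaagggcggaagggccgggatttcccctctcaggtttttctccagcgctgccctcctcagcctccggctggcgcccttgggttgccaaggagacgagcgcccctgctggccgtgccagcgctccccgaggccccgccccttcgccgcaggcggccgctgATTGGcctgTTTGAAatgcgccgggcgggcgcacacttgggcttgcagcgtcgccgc
Kif11: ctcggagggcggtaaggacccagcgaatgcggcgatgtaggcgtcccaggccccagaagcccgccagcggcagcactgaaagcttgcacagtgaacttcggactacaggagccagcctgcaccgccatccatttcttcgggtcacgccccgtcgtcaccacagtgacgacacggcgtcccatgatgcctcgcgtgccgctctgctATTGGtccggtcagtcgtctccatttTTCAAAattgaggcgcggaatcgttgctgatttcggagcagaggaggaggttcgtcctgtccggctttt

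In Kif22 the nearer homology region begins 17 bases before the start and a CCAAT box 54 bases before it. In Kif11 these distances are 19 and 45 bases, and in Kif23 the box begins 7 bases before the start and the homology region at base 3 after it. The homology region was found in 7 of 9 mitotic kinesin genes with a window, in 1 of 9 transport genes and in 2 of 6 cilium and microtubule genes. Over all 32851 windows of the table, 19.2% held it, 37.4% held a CCAAT box and 7.52% held both. Both stood in 5 of the 9 mitotic genes, in 2 of the 6 cilium and microtubule genes (Kif24 and Kif27) and in 0 of the 9 transport genes. The grainyhead-like element AACCGGTT, searched on both strands, was in 0 of the 28 kinesin windows and in 0.146% of all windows. An element so rare would hardly be met in 28 windows of any genes, so this count says nothing particular of kinesins. Kifc2 had no window to search. Matches of different motifs overlapped in 0 cases. These matches are descriptions of letters in a window, and binding was not measured here.

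Of the transport kinesins 13 were on the array and 11 were tested, with a median log2 change of 0.18. Kifc2 alone passed the threshold (9.09%, against 13.7% of all genes). Kifc2 is a motor with its catalytic domain at the carboxyl end, known from neurons, where it moves toward the minus ends of microtubules. Its normalized values were 4.87, 4.60, 5.31 and 4.57 on wildtype replicates 1 to 4 and 6.46, 7.22, 7.26 and 8.06 on knockout replicates 1 to 4. Raw intensities were 158, 145, 165 and 152 on the wildtype arrays and 191, 221, 235 and 276 on the knockout arrays. All knockout arrays were higher on both scales, although knockout arrays were dimmer as a whole. Of the 23 kinesin genes it was the only one whose raw intensities were all higher in knockout, while for 15 all knockout arrays lay below. The same shares over all genes were not counted. On arrays dimmer as a whole, these counts are no trait of kinesins.

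The log2 change of Kifc2 was 2.41 (SE 0.30, limma adjusted p = 0.00265), and the signal was detected on 2 wildtype arrays and 4 knockout arrays. It thus met the filter of 4 arrays through the knockout group, where it is high. Under a filter of all 8 arrays it was not tested, and with no detection filter its limma adjusted p was 0.00640. Its size depends on how background is removed from so dim a signal: the change was 0.93 with no background correction, 1.58 with normexp at an offset of 50, and 0.96 in the authors' deposited table (adjusted p = 0.00473 there). Each of the 8 fits that left out 1 array kept the call, with changes from 2.19 to 2.69. With array brightness as a covariate the change was 0.40 (adjusted p = 0.684). The array holds another probe for Kifc2, which was detected on no array, with raw intensities between 115 and 148. Each bead type was read on 25 to 37 beads for the informative probe, and the standard error of its beads was 2.25% to 4.49% of the intensity. Markers of neural cells were read beside it, since Kifc2 is known from neurons. Of 11 on the array, 5 were tested and 0 passed the threshold, against 13.7% of all genes (limma, and 0 at an unadjusted p under 0.05). The summed normalized intensity of these 5 ran from 971 to 2265 in wildtype and from 1795 to 2536 in knockout. Pax6 and Snap25 were detected on no array, while Nes, Map2, Stmn2 and Elavl3 were detected on all 8. Sox1 was detected on 0 wildtype and 2 knockout arrays, Syt1 on 3 and 1, and Dcx on 2 and 0. Tubb3 and Neurog2 were each detected on 1 wildtype and 0 knockout arrays. The part of neural cells in the result was not tested.

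**Figure D3:**
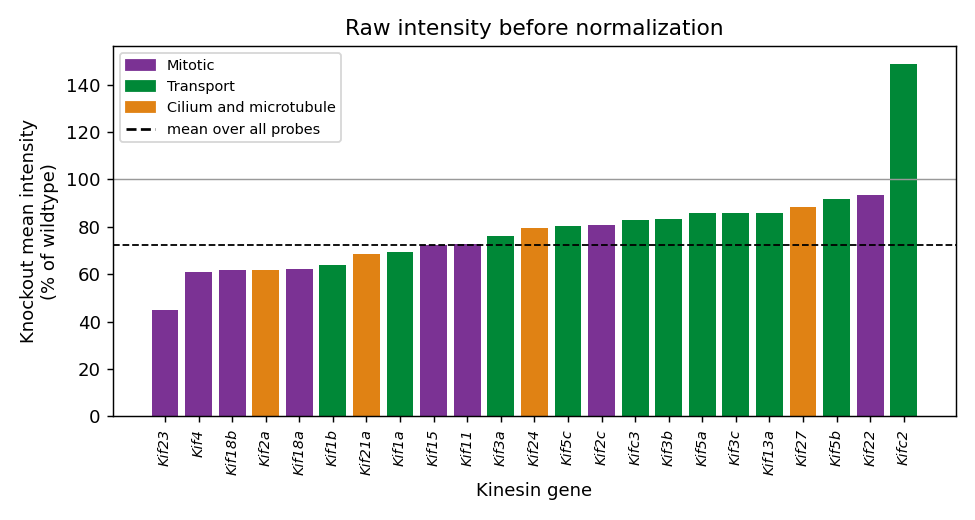
Mean raw intensity on knockout arrays as a percentage of wildtype (vertical axis) for the 23 tested kinesin genes, before any normalization. The dashed line is the mean over all probes at 72.3%, Kif23 is lowest at 44.8%, Kif22 stands at 93.5%, and Kifc2 is the only gene whose knockout mean is above its wildtype mean.

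Kif3c, Kif13a and Kif5c also had all knockout arrays above all wildtype arrays in normalized values, without passing the threshold. Kif3c, a partner of Kif3a known from neurons, had a log2 change of 0.48 with a 95% interval of 0.10 to 0.85 (limma adjusted p = 0.0828). For Kif13a, a motor of endosomes, it was 0.37 with an interval of 0.08 to 0.66 (limma adjusted p = 0.0836). For Kif5c, a neuronal heavy chain of conventional kinesin, it was 0.35 with an interval of 0.04 to 0.66 (limma adjusted p = 0.116). The sign of each turned with no normalization between arrays, where the changes were -0.22, -0.25 and -0.36, and with median scaling they were 0.0084, -0.018 and -0.13. These settings moved the median of all genes to -0.58 and -0.35, below each of the 3 genes. The other Kif3c probe, detected on 3 arrays of each group, had a value of 0.055.

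For the other heavy chains, the ciliary motor and the remaining transport kinesins the interval of the log2 change held 0. Kif5b, the heavy chain of conventional kinesin in most cells, was read only near background: its better probe was detected on 1 wildtype array and 3 knockout arrays and its other probe on 0, and its change of 0.38 had an interval of -0.01 to 0.78. Kif5a had a change of 0.03, with an interval of -0.58 to 0.64, and its knockout arrays spread from 4.68 to 6.18. Kif3a and Kif3b together form the motor of intraflagellar transport. Kif3a had a change of 0.18 (interval -0.09 to 0.44) and Kif3b one of -0.19 (interval -0.56 to 0.19). Kif1a, the motor of synaptic vesicle precursors, was 7.79 ± 0.22 in wildtype and 7.79 ± 0.16 in knockout (SD, n = 4 each). Kifc3, which acts in apical transport and at adherens junctions of epithelial cells, had a change of -0.11 (interval -0.61 to 0.39). It was detected on 4 wildtype arrays and on 1 knockout array, replicate 4, whose normalized value of 5.90 was above all other arrays. By raw intensity all knockout arrays of Kifc3 (134 to 149) lay below the wildtype arrays (160 to 180). Kif1c and Kif17 were detected on no array.

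Kif1b, which carries mitochondria and synaptic vesicle precursors through different isoforms, gave different answers from different probes. It had 6 probes, 4 annotated to one RefSeq transcript record and 2 to another, and 3 were retained. Probe ILMN_1239729 measured 8.83, 8.74, 8.20 and 8.55 on wildtype replicates 1 to 4 and 8.19, 7.88, 8.10 and 7.78 on knockout replicates 1 to 4. The groups did not overlap, but wildtype replicate 3 lay next to knockout replicate 1. Over the 12790 retained probes its log2 change of -0.59 passed the threshold (SE 0.16, limma adjusted p = 0.0380). Probe ILMN_2670778, annotated to the same record and standing for the gene above, had a change of -0.05 (SE 0.14, limma adjusted p = 0.833), and probe ILMN_3034877 of the other record one of 0.27 (SE 0.17, limma adjusted p = 0.305).

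The differences between these probes on the same array were tested, a comparison chosen after their values were seen. The log2 value of ILMN_1239729 minus that of ILMN_2670778 was -0.52 ± 0.15 in wildtype and -1.06 ± 0.07 in knockout (SD, n = 4 each; exact two-sided permutation p = 0.0286, the smallest possible). Against ILMN_3034877 it was 0.23 ± 0.34 in wildtype and -0.64 ± 0.30 in knockout (exact two-sided permutation p = 0.0286), with -0.25 on wildtype replicate 3 close to -0.27 on knockout replicate 3. On raw log2 intensities with no background step the first of these changed by -0.34 and the second by -0.62. In the same exact permutation test their p was 0.0286 and 0.0571. The call of ILMN_1239729 itself held without wildtype replicate 3 and without knockout replicate 1, and was lost when any other array was left out (highest adjusted p = 0.0969). It was also lost with no detection filter (adjusted p = 0.0569), and with array brightness as a covariate the change was 0.049 (adjusted p = 0.970). Over all kinesin probes, 4 of 32 retained probes passed (12.5%), against 13.0% of all retained probes. By the authors' deposited table, 6 of 51 kinesin probes had an adjusted p under 0.05 (11.8%), against 8.62% of all probes there. They were those of Kifc2, Kif22, Kif2c, Kif20a, Kif23 and ILMN_1239729 of Kif1b, 4 higher and 2 lower.

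**Figure D4:**
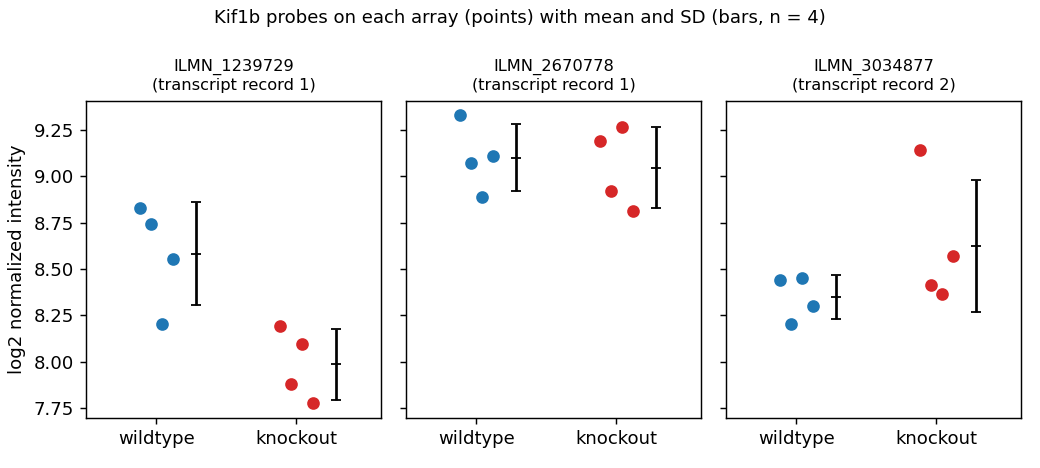
Log2 normalized intensity (vertical axis) of the 3 retained Kif1b probes on 4 wildtype and 4 knockout arrays, with mean and SD beside the points. Probe ILMN_1239729 is lower on all knockout arrays, while both other probes overlap between groups.

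The kinesins of cilia and of microtubule length held 6 genes, of which 4 were tested, with a median log2 change of -0.18. Of these 0 passed the threshold, against 13.7% of all genes (limma, and 0 at an unadjusted p under 0.05). Kif24, a centriolar depolymerase that holds back cilia, had a change of -0.20 (interval -0.46 to 0.05). Kif21a, which limits microtubule growth at the cell cortex, was also at -0.20 (interval -0.48 to 0.08). Kif2a, a depolymerase of spindle poles and neurites, was at -0.17 (interval -0.50 to 0.17). Kif27, a kinesin of motile cilia, was at 0.20 (interval -0.25 to 0.65), and its other probe at -0.09, both near background. Kif9 and Kif12 were detected on no array.

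Genes that work with kinesins were read from 5 lists. Of 85 tested members 13 passed the threshold, 15.3% against 13.7% of all genes, 5 higher and 8 lower. Of the 5 that rose, Fez1 alone was past the threshold with median scaling or with no normalization between arrays. These settings moved the median of all genes to -0.35 and -0.58. Of the 13, Fez1 alone was past it with array brightness as a covariate, a fit in which 0.181% of all genes passed. Among 15 cargo adaptors and light chains 2 rose and 1 fell, with a median log2 change of -0.09. These 3 are 20% of the list, against 13.7% of all genes. Fez1, an adaptor that links cargo to conventional kinesin, measured 6.07, 5.90, 5.80 and 6.29 on wildtype replicates 1 to 4 and 8.12, 7.38, 8.32 and 6.93 on knockout replicates 1 to 4, all higher. It was 3.19-fold higher (SE 0.28 on the log2 scale, limma adjusted p = 0.00887), its other probe rose by 1.58, and it kept its call in all 21 alternative settings. The size of its log2 change depended on the background step, from 1.67 to 0.85 with no background correction and 0.84 on the authors' deposited values. Mapk8ip2, a scaffold that binds kinesin light chains, rose by 0.71 (limma adjusted p = 0.0198). Its change was 0.29 (adjusted p = 0.197) with median scaling, 0.059 (adjusted p = 0.791) with no normalization between arrays and 0.37 with no background correction. Kifap3, the subunit that joins cargo to Kif3a and Kif3b, fell by 0.38 (SE 0.11, limma adjusted p = 0.0455), and its other probes had changes of -0.81 and -0.39, the first of them past the threshold over all probes. The call of Kifap3 held in 1 of the 8 fits that left out 1 array.

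Of 15 spindle partners Cdk1, the kinase that starts mitosis, alone passed and fell by 0.53 (limma adjusted p = 0.0436), a call held in 2 of the 8 fits that left out 1 array and lost with no detection filter (adjusted p = 0.0597). That is 6.67% of the list, which held 7 positive and 8 negative changes. Prc1, which bundles midzone microtubules with Kif4 and Kif23, had a change of -0.0039. The groups did not overlap for 4 of the 15, against 23.2% of all genes. These were Plk1, Bub1b, Cdca8 and Birc5, higher in knockout by 0.50, 0.28, 0.28 and 0.26 on the normalized scale, and none passed the threshold. In the authors' deposited table, where 8.62% of all probes had an adjusted p under 0.05, Bub1b, Cdca8 and Birc5 did (0.00844, 0.0461 and 0.0429). Plk1 did not (0.0787). Aurka, another mitotic kinase, had a change of -0.28 (limma adjusted p = 0.14, and 0.0439 in the authors' table) with overlapping groups. These 5 and Prc1 were named after their values were seen.

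Of 21 genes of dynein and dynactin, the motor that runs toward minus ends and its activator, 4 fell and 0 rose, 19.0% of the list against 13.7% of all genes (7.17% lower). The list as a whole held 11 positive and 10 negative changes, with a median of 0.02. The dynein adaptor Hook2 fell by 0.90, the dynactin subunit Dctn1 by 0.87, the regulator Pafah1b1 (LIS1) by 0.65 and the adaptor Bicd2 by 0.41 (limma adjusted p = 0.0204, 0.0299, 0.0344 and 0.0460). Hook2 is on chromosome 8 and Dctn1 on chromosome 6, the chromosomes that stood apart on 1 array each. Without those 2 arrays the change of Dctn1 was -0.66 (adjusted p = 0.0633), while Hook2 stayed past the threshold. With no background correction the changes were smaller, -0.52 for Hook2 and -0.32 for Dctn1, and both stayed past the threshold. With no detection filter Pafah1b1 was not past it (adjusted p = 0.0511). Over the 8 fits that left out 1 array, the call held in 5 for Hook2, 3 for Dctn1, and 1 each for Pafah1b1 and Bicd2.

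Of 18 tubulins and microtubule binders 3 passed the threshold (16.7%), with a median log2 change of 0.05. Map7 fell by 1.06 (limma adjusted p = 0.0111), while Map1b rose by 0.84 and the microtubule nucleator Tubg1 by 0.78 (limma adjusted p = 0.0299 and 0.0447). Map7 recruits conventional kinesin to microtubules, and Map1b binds microtubules of growing axons. With median scaling Map1b was at 0.39 (adjusted p = 0.226) and Tubg1 at 0.29 (adjusted p = 0.271), and with no normalization between arrays they were at 0.15 (adjusted p = 0.599) and 0.059 (adjusted p = 0.810). With no background correction Map7 was at -0.49 and Map1b at 0.54, both past the threshold, and with no detection filter Tubg1 was not past it (adjusted p = 0.0751). The call held in 8 of 8 fits without 1 array for Map7, in 4 for Map1b and in 1 for Tubg1. Of 16 genes of cilia and Hedgehog signalling 2 passed (12.5%), with a median log2 change of -0.04. Bbs5, a subunit of the BBSome coat, fell by 0.64 and Ift172, a subunit of intraflagellar transport trains, rose by 0.44 (limma adjusted p = 0.0441 and 0.0345). The rise of Ift172 turned to -0.038 with median scaling and -0.27 with no normalization between arrays, and its other probes had changes of 0.24 and 0.097, neither past the threshold. The calls of Bbs5 and Ift172 held in 1 fit without 1 array each, and that of Bbs5 was lost with no detection filter (adjusted p = 0.0687).

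**Figure D5:**
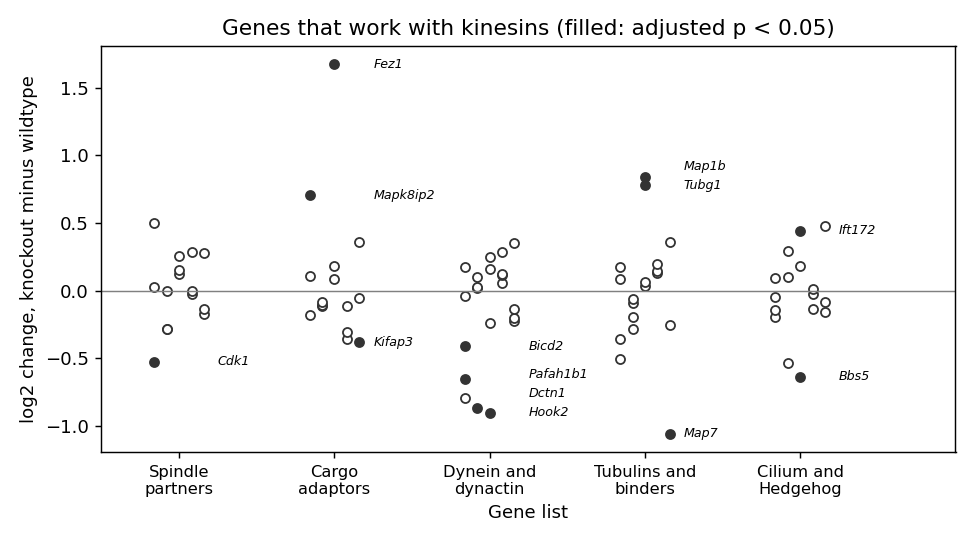
Log2 change of knockout minus wildtype (vertical axis) for each tested member of 5 lists of genes that work with kinesins. Filled points passed the threshold; Fez1 at 1.67 and Map7 at -1.06 lie farthest from 0, and 4 of 21 genes of dynein and dynactin are filled, all below 0.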

How the data were processed

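RNA of 8 cultures was read on 1 array each. Per the file headers, one deposited file holds for each probe a mean intensity, the beads' standard error, a bead count (avg nbeads) and a detection p-value; the intensity is not normalized between arrays. The authors deposited a log2 table in which all arrays share the same sorted values, as quantile normalization gives, and a comparison table of log2 fold changes, p-values and score columns (t and log odds). The submitters' processing notes name limma.

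Here, limma 3.58.1 in R 4.3.3 supplied neqc (offset 16, background from detection p-values). A probe was kept if its detection p was under 0.05 on 4 arrays or more (12790 probes), and the probe of highest mean represented each gene (8830 genes). Groups were contrasted without covariates, with Benjamini-Hochberg adjustment, and the fit was tested on simulated data. Symbols came from the platform annotation, chromosomes and promoters from RefSeq (GRCm38.p6). A group in which a gene was undetected was given a bound from each array's lowest detected signal.

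The members, classes and lists were chosen with earlier results of these data known. Values on every array are given for called kinesins, for those detected on no array of one group and at least 3 of the other, for those whose probes differ in sign with 1 called, and for Grhl2. Other kinesins may be named, and up to 4 called members of each list; Fez1 and Kif2c were shown by array after their values were seen. Alternatives covered background, scaling, filter, probe choice, weights, moderation, brightness, clone number and arrays left out. Slides are not given in the labels, so were not tested. Protein sequences were not used here. Per-sample columns left unmapped numbered 0. The number of arrays limits the precision.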

Additional observations from a re-analysis of the deposited data

Results flagged for a closer look

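In 3 of 46 groups of 4 arrays, over 23 kinesin genes, 1 array lay far from the other 3 by Dixon's criterion, which chance meets in about 1 of 20 groups (log2 normalized intensity throughout). Wildtype replicate 1 was at 10.30 for Kif23, against 9.63 to 9.68 on the other wildtype arrays. Knockout replicate 1 was at 9.10 for Kif5c, against 8.77 to 8.78 on the other knockout arrays. Knockout replicate 4 was at 5.90 for Kifc3, against 4.91 to 5.02 on the other knockout arrays.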

How the results depend on the processing

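With all arrays, 3 kinesin genes, 4 kinesin probes and 13 genes of the 5 lists passed the threshold, in that order. The counts were 10, 14 and 40 with median scaling and 14, 19 and 64 with no normalization between arrays, and under both Kifc2 was the only kinesin that rose. These settings also moved the median of all genes to -0.35 and -0.58, and they called 40.8% and 65.3% of all genes. With array brightness as a covariate the counts were 0, 0 and 1 (limma, with 1 kinesin gene and 1 probe at an unadjusted p under 0.05), and 0.181% of all genes were called. Mean raw intensity was 668 to 744 on wildtype arrays and 447 to 571 on knockout arrays. That fit can therefore hardly part brightness from genotype, and a call lost in it says little of a single gene. Array weights gave 22 list genes of 85, with 24.6% of all genes called. The clone number as a replicate block gave 2 kinesin genes, 1 kinesin probe and 6 list genes, with 7.6% of all genes called. Same-numbered arrays had correlations of deviations from -0.077 to 0.046, so the numbers did not pair them. Of 4 knockout arrays, 1 correlated best with its own number. In the limma fit with the clone number Kif22 had an adjusted p of 0.0629. Leaving out 1 array at a time gave 1 to 4 kinesin genes, 1 to 5 probes and 3 to 13 list genes. The share of all genes called in these fits was 6.01% to 16.3%. Kifc2 was the 1 kinesin called without wildtype replicate 4, knockout replicate 2 or knockout replicate 4. The calls over all genes split 578 higher to 633 lower, 135 to 3466 with median scaling and 36 to 5730 with no normalization between arrays. With no normalization between arrays the changes were -0.11 for Kif22, -0.53 for Kif11, -0.52 for Kif15, -0.70 for Kif1a, -0.52 for Kif3a and -0.27 for Ift172. With median scaling they were -0.47 for Kif1a and -0.038 for Ift172. With brightness they were 0.033 for Bbs5, 0.18 for Cdk1 and 0.049 for Kif1b probe ILMN_1239729. Of the 477 kinesin values under alternatives, 39 had the other sign than the value reported, 19 of them under median scaling or no normalization between arrays. The cause was not tested. The fits over probes other than that with no background correction were chosen after seeing the data. Of 51 kinesin probes 16 were detected on no array, so the signal over background limits what can be said of them.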
